A study of Rattus norvegicus with 6 samples.

Results

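Small heat shock proteins are the crystallin-type chaperones of the cell, and Bag3 is the co-chaperone that ties them to the Hsp70 system and to autophagy. The genes examined were Cryab, Hspb1, Hspb2, Hspb3, Hspb6, Hspb7 and Hspb8, which encode small heat shock proteins, and Bag3. They were taken by symbol from a table of 17089 genes, and all 8 were found there. Each had a mean of at least 10 normalized counts over the libraries, so all 8 were among the 11230 genes tested. The study compared neonatal rat ventricular myocytes, primary cultures from Sprague Dawley pups at postnatal day 1-3, after transfer of either of 2 adenoviruses on the day of isolation. The Tbx18 group (3 libraries, labelled TBX18-iPMs) received Ad-Tbx18-IRES-GFP, and the GFP group (3 libraries, labelled GFP-NRVMs) received Ad-GFP, so that both groups carried a virus with GFP. The column headers mark all 6 libraries with the words unpace and Control, whose meaning is not explained in the labels. RNA was taken on day 4 after gene transfer. The aim was to describe ventricular myocytes turned pacemaker-like by Tbx18, which belongs to the T-box transcription factors and acts in the embryonic sinus node.

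Small heat shock proteins share a crystallin domain, assemble into oligomers and hold unfolding proteins without using ATP until Hsp70 chaperones refold them or pass them on for degradation. Heart and skeletal muscle carry several of them in abundance, and they bind desmin, actin, titin and filamin, the load-bearing proteins of the sarcomere and its surroundings. Bag3 binds small heat shock proteins, above all Hspb8, at one site and Hsp70 at another. Together with the ubiquitin ligase Stub1 they remove damaged filamin at the Z-disc in what is called chaperone-assisted selective autophagy. Mutations in human CRYAB and BAG3 cause myofibrillar myopathy and cardiomyopathy.

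The 6 libraries held 17074483 to 19800300 gene-assigned reads. Tbx18 itself averaged 6059 ± 157 normalized counts in the Tbx18 libraries and 292 ± 22.1 in the GFP libraries (SD, n = 3 each), matching the labels. Replicates are not said to be separate isolations, so the p-values below measure no more than the spread among these 6 libraries. Of the genes tested, 23.5% were lower and 22.5% higher in Tbx18 (limma adjusted p under 0.05). All 12 cardiomyocyte markers were detected, 10 being lower and 0 higher, and their summed level was 486745 to 499324 in Tbx18 against 978950 to 1107952 in GFP libraries. Of 9 fibroblast markers 8 were higher and 0 lower, with sums of 515700 to 599776 in Tbx18 and 240384 to 280254 in GFP. Most of these sums came from the collagen genes Col1a1 and Col3a1. Col1a1 alone held 348859 to 411072 in Tbx18 and 183972 to 219259 in GFP. Of 9 smooth muscle and pericyte markers 5 were higher and 1 lower, with sums of 122284 to 134135 in Tbx18 and 80034 to 117466 in GFP. Of 8 endothelial markers 4 were higher and 1 lower (sums of 2332 to 2465 in Tbx18 and 1615 to 2641 in GFP), and of 7 macrophage markers 2 were higher and 0 lower (sums of 1357 to 1868 in Tbx18 and 1134 to 2041 in GFP). The skeletal muscle progenitor markers Myf5 and Pax7 were at 0 in every library. Myod1, another of the 9 skeletal muscle markers, averaged 1.58 ± 0.59 in Tbx18 and 16.6 ± 6.74 in GFP, without overlap, and was not tested. Of the 3 tested, Acta1 and Ckm, the latter also among the cardiomyocyte markers, were lower and Tnnt3 was not called. Myog, Myf6 and Tnni2 were at 3.51 or less in every library. The part of these shifts in the results below was not tested, and in bulk RNA fewer cells of a type and less RNA per cell cannot be told apart.

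All 8 genes were lower in the Tbx18 cultures. All 8 passed the test, against 23.5% of all tested genes called lower, and for all 8 every Tbx18 library lay below every GFP library, which held for 28.6% of all tested genes. The fall was deepest for Hspb6, at 23.1% of the GFP level, followed by Hspb8 at 36.5%, Hspb3 at 43.0%, Hspb7 at 49.0%, Hspb1 at 54.0%, Bag3 at 62.2%, Cryab at 70.2% and Hspb2 at 73.9%. A fall of at least 2-fold on the log2 scale was reached by 4 of the 8, namely Hspb6, Hspb8, Hspb3 and Hspb7, against 4.22% of all tested genes. The median log2 fold change of the 8 genes was -0.94, beside 0.01 for all tested genes and -0.96 for the 12 cardiomyocyte markers. The deposited normalized counts summed to 17273631 to 17494656 in Tbx18 libraries and to 20141912 to 21563080 in GFP libraries. With totals made equal the median of all genes moved to 0.27 and that of the 8 genes to -0.68. Then 6 of the 8 were called lower and 0 higher, against 12% and 42.5% of all genes, and 2 were at least 2-fold lower against 2.23%. With upper-quartile scaling all 8 were called lower, against 19.7% of all genes lower and 27.2% higher.

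**Figure D1:**
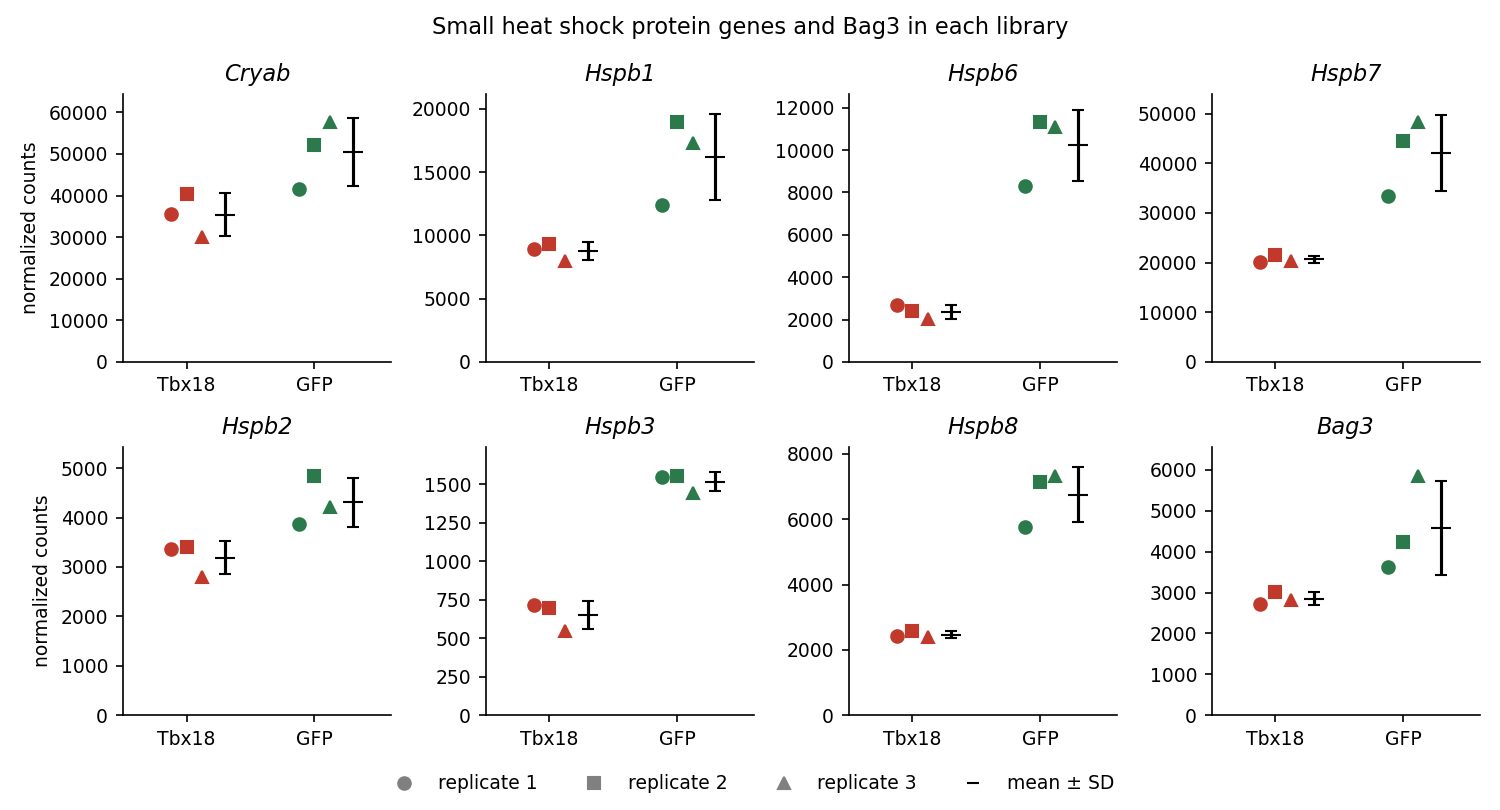
Normalized counts (y axis, from 0) of the 8 genes in each Tbx18 and GFP library, one symbol per replicate number, with the mean and SD beside them. Every Tbx18 library lies below every GFP library in all 8 panels, from Hspb6 (2026 to 2678 in Tbx18, 8290 to 11310 in GFP) to Cryab, where the highest Tbx18 library is at 40468 and the lowest GFP library at 41464.

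Hspb6, also called Hsp20, is a target of the cAMP- and cGMP-dependent kinases in heart and smooth muscle and had 2678, 2385 and 2026 normalized counts in the Tbx18 libraries, against 8290, 11310 and 11078 in the GFP libraries. Every Tbx18 library lay far below the lowest GFP library, and the SD of the Tbx18 values, 0.20 on the log2 scale, was above the median of 0.10 over all tested genes. Hspb6 fell 4.33-fold (log2 fold change -2.11 with an SE of 0.14, limma adjusted p = 8.84e-06), and 45 of the tested genes had a lower log2 fold change. Under the 18 alternative settings its log2 fold change stayed between -2.25 and -1.84.

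Hspb8, known as Hsp22, is the best known small heat shock protein partner of Bag3. It was read at 2409, 2578 and 2399 in Tbx18 libraries and at 5776, 7134 and 7338 in GFP libraries, a 2.74-fold fall (log2 fold change -1.45 with an SE of 0.10, limma adjusted p = 1.16e-05). Its Tbx18 values were nearly equal, with an SD of 0.06 on the log2 scale against 0.19 within GFP. Bag3 was at 2713, 3016 and 2824 in Tbx18 and at 3636, 4247 and 5863 in GFP, where replicate 3 stood above the other 2 libraries. Its fall was 1.61-fold (log2 fold change -0.66 with an SE of 0.15, limma adjusted p = 0.00597). Without GFP replicate 3 the log2 fold change of Bag3 was -0.46, and it was -0.39 with equal totals (limma adjusted p = 0.0449).

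Hspb7, the cardiovascular small heat shock protein, binds filamin C and is needed for ordered thin filaments in mouse heart. Its values were 20041, 21437 and 20423 in Tbx18 and 33395, 44586 and 48266 in GFP, with GFP replicate 1 the lowest control. The fall was 2.04-fold (log2 fold change -1.01 with an SE of 0.14, limma adjusted p = 0.00032), and the 95% interval of -1.32 to -0.71 spans a 2-fold change. Quantile normalization gave -0.61.

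Hspb1, the rodent Hsp25 and human HSP27, acts on actin filaments and is phosphorylated by stress kinases. It stood at 8949, 9331 and 7966 in Tbx18 against 12412, 18933 and 17272 in GFP. This was a 1.85-fold fall (log2 fold change -0.87 with an SE of 0.15, limma adjusted p = 0.00114). The control libraries spread widely, from 12412 to 18933, and the lowest of them still lay above the highest Tbx18 library; quantile normalization gave -0.57.

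Hspb2 and Hspb3 form a complex of their own in muscle. Hspb3 had 713, 694 and 547 counts in Tbx18 libraries and 1547, 1557 and 1444 in GFP libraries, and fell 2.33-fold (log2 fold change -1.23 with an SE of 0.11, limma adjusted p = 4.03e-05). Among the 8 genes it was the one whose GFP values agreed best, with an SD of 0.06 on the log2 scale. Hspb2 was at 3364, 3395 and 2806 in Tbx18 and at 3867, 4851 and 4217 in GFP. Its fall was 1.35-fold (log2 fold change -0.43 with an SE of 0.11, limma adjusted p = 0.00948), and it was not called with equal totals (-0.17, limma adjusted p = 0.173) or after quantile normalization (-0.24, limma adjusted p = 0.071).

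Cryab, alpha-B crystallin, is the desmin-binding chaperone of the Z-disc and had 35637, 40468 and 30054 counts in Tbx18, against 41464, 52122 and 57615 in GFP. The groups did not overlap, but Tbx18 replicate 2 came close to GFP replicate 1. The 1.42-fold fall was called (log2 fold change -0.51 with an SE of 0.15, limma adjusted p = 0.0216), with a 95% interval of -0.85 to -0.17. This was the least certain of the 8 calls: the limma adjusted p was 0.0613 without Tbx18 replicate 1, 0.0997 without Tbx18 replicate 3, 0.059 without GFP replicate 2 and 0.0704 without GFP replicate 3. It was also 0.162 with equal totals, where the log2 fold change was -0.24, and 0.441 after quantile normalization, where it was -0.12. Hspb11, which shares the family's symbol but is not counted here as a crystallin-type member, averaged 143 ± 20.5 in Tbx18 and 178 ± 28.2 in GFP. Its groups overlapped, and it was not called (log2 fold change -0.32, limma adjusted p = 0.154), except after quantile normalization. The eye lens crystallin gene Cryaa was at 1.15 normalized counts or less in every library and the testis gene Hspb9 at 3.51 or less, and neither was tested.

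**Figure D2:**
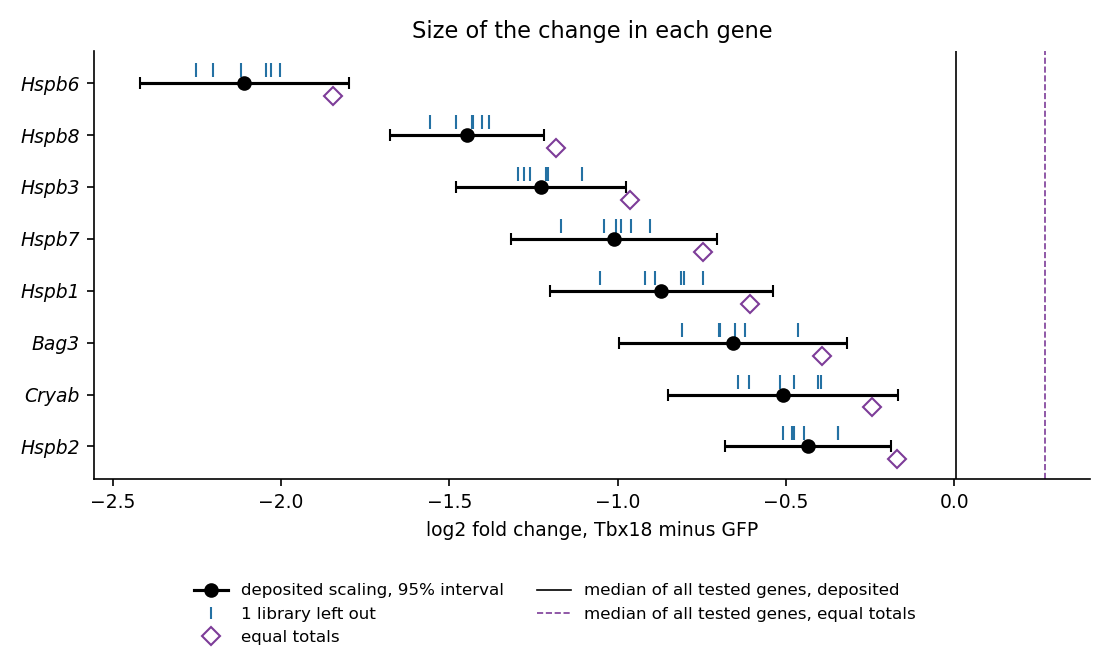
Log2 fold change of each gene (x axis, Tbx18 minus GFP) with its 95% interval from limma as a black point and bar, the values with 1 library left out as blue ticks, and the value with library totals made equal as an open diamond. Vertical lines mark the median of all tested genes under each scaling, 0.01 and 0.27; every marker lies below 0, from -2.25 to -0.17.

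The libraries did not vary alike within a group. GFP replicate 1 had the lowest value of its group for 7 of the 8 genes, Hspb3 being the exception, and also the lowest cardiomyocyte marker sum of the GFP libraries. Leaving it out gave the lowest log2 fold change for 7 of the 8 genes, for example -0.64 for Cryab and -1.05 for Hspb1. Within Tbx18, replicate 3 was lowest for 6 of the 8 genes. Its cardiomyocyte marker sum of 499324 was the highest of the Tbx18 libraries, close to the 497766 of replicate 2. Myh6, the largest part of that sum, was highest in replicate 3. The markers Tnnt2, Tnni3, Tnnc1, Myl3, Pln, Ckm and Mb were lowest in replicate 3, while Actn2, Myh6, Myh7, Myl2 and Ryr2 were not. The median SD of the log2 values of the 8 genes was 0.14 within Tbx18 and 0.25 within GFP, beside 0.10 and 0.17 for all tested genes.

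Summed over the 7 small heat shock protein genes, the libraries held 73791, 80287 and 66220 normalized counts in Tbx18 and 106752, 140493 and 147231 in GFP. The mean sum in Tbx18 was 55.8% of that in GFP, or 46.9% without Cryab. The groups did not overlap, and an exact permutation test gave a two-sided p = 0.1, the smallest that 3 against 3 libraries allow. As a share of all gene-assigned reads the 7 genes took 0.381 to 0.459% in Tbx18 and 0.53 to 0.703% in GFP. Set against the summed cardiomyocyte markers, there were 15.2, 16.1 and 13.3 small heat shock protein counts per 100 marker counts in Tbx18 and 10.9, 12.7 and 13.4 in GFP, and these ranges overlapped. Myh6, which was not called, was the largest part of the marker sum in every library. It held 214063, 208772 and 234833 counts in Tbx18 and 279614, 264186 and 331738 in GFP. Its log2 fold change of -0.41 was the smallest fall among the 12 markers, whose median was -0.96. The overlap therefore holds only for a sum that includes Myh6. No proportion between the family and the other markers is read from it, and a ratio without Myh6 was not computed.

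The make-up of the family differed between the groups. Cryab took 45.4 to 50.4% of the 7-gene sum in Tbx18 and 37.1 to 39.1% in GFP, while Hspb6 took 2.97 to 3.63% in Tbx18 and 7.52 to 8.05% in GFP. These shares are of reads, not of molecules, since transcript lengths were not used, and for the same reason no order of levels between the genes is given.

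Ratios within a library do not depend on the factor by which that library is scaled. The ratio of Hspb8 to Bag3, the partners of the filamin-clearing complex, was 0.888, 0.855 and 0.85 in Tbx18 and 1.59, 1.68 and 1.25 in GFP. The ratio was lower in every Tbx18 library than in any GFP library. The ratio of Hspb2 to Hspb3 was 4.72, 4.89 and 5.13 in Tbx18 and 2.5, 3.12 and 2.92 in GFP. Reads of Hspb2 and Hspb3 were thus not lowered in proportion in these libraries, and protein was not measured. Hspb6 to Hspb1 stood at 0.299, 0.256 and 0.254 in Tbx18 and at 0.668, 0.597 and 0.641 in GFP, the widest separation among the pairs, with a log2 difference of -1.24. For Hspb1 to Cryab the log2 difference was -0.36 and for Hspb7 to Cryab -0.50. None of these 5 ratios overlapped between the groups. Each had an exact two-sided permutation p = 0.1, the smallest possible, and 0.12 after Benjamini-Hochberg adjustment over the 6 pairs compared. The share of all gene pairs whose ratios separate in these libraries was not computed. Nothing particular to the family is therefore read from the count. The sixth pair, Cryab to Hspb2, had ratios of 10.6, 11.9 and 10.7 in Tbx18 and 10.7, 10.7 and 13.7 in GFP (log2 difference -0.07, exact permutation p = 0.5), and its ranges overlapped. Cryab and Hspb2 are neighbours in the rat genome and overlap in the GRCr8 annotation of RefSeq; whether reads were counted by strand was not given in the sources used here, which makes their counts less certain.

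**Figure D3:**
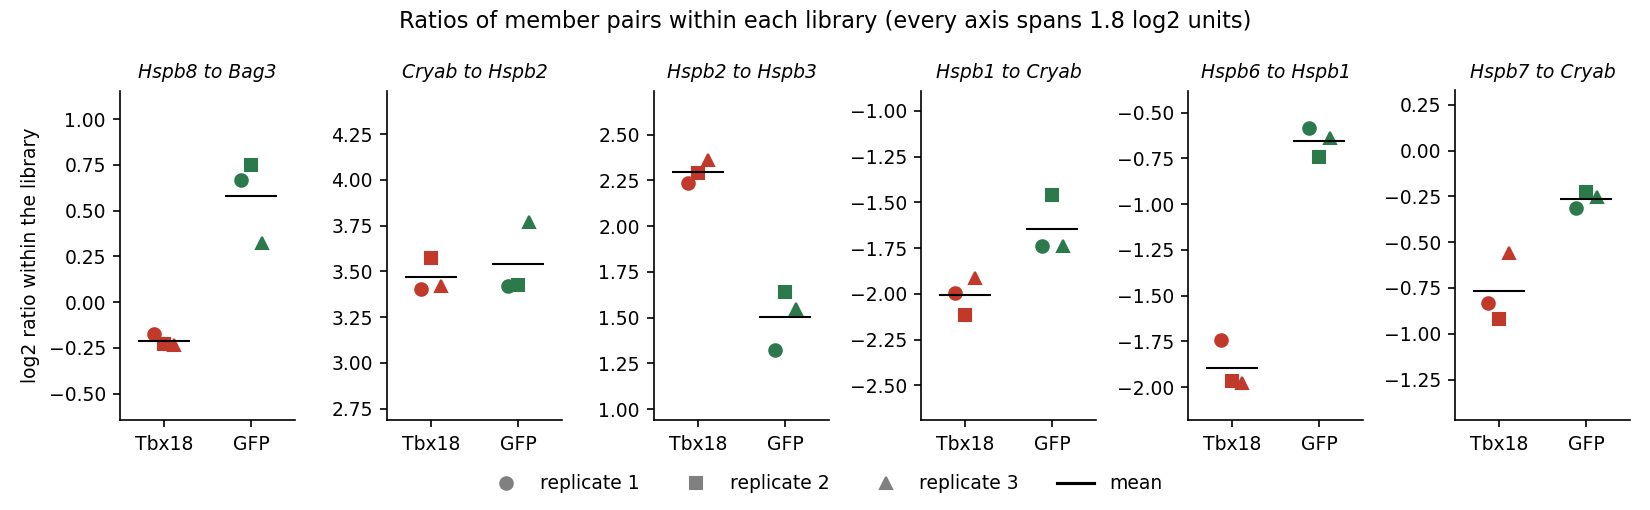
Log2 ratio of 2 genes within each library (y axis, each panel spanning the same range) for 6 pairs, one symbol per replicate number, with the group mean as a line. Tbx18 and GFP libraries separate in every pair but Cryab to Hspb2, where the means are 3.47 and 3.54.

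Promoter windows from RefSeq (GRCr8), the 250 bases before the annotated start, were matched for 6 of the 8 genes: Bag3, Hspb1, Hspb3, Hspb6, Hspb7 and Hspb8. They were searched because heat shock factors bind alternating GAA and TTC units, and T-box factors bind AGGTGTGA. The element of 3 alternating units (GAA, TTC and GAA, or TTC, GAA and TTC, each 2 bases apart) was in 0 of the 6 windows and in 0.663% of all 33469 windows. A pair of units, GAANNTTC or TTCNNGAA, each its own reverse complement and contained in the longer element, was in 4 of the 6, Bag3, Hspb1, Hspb6 and Hspb8, and in 13.5% of all windows. The T-box word AGGTGTGA, on either strand, was in 0 of the 6 and in 0.959% of all. In all 4 windows the pair of units included the same word on the gene's own strand, GAAGTTTC, which lay 23 to 149 bases before the start and was present on either strand in 1.22% of all windows. That word was singled out after the windows had been read. Here the 32 bases around it are shown 5′ to 3′ on the strand of each gene, with the word in capitals.
Hspb1: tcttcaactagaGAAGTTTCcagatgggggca
Hspb6: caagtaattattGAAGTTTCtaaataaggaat
Hspb8: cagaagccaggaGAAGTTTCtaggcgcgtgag
Bag3: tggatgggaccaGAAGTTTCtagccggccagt
They lie at chr12:26432411-26432442 on the minus strand for Hspb1, and on the plus strand at chr1:94934211-94934242 for Hspb6, chr12:45837273-45837304 for Hspb8 and chr1:192533316-192533347 for Bag3. A further pair of units was found in the window of Hspb1, GAACCTTC at 109 bases before the start, and in that of Hspb6, of the other kind. The whole window of Hspb6 (chr1:94934122-94934371, plus strand) is given, since it alone held both kinds, with the matches in capitals.
Hspb6: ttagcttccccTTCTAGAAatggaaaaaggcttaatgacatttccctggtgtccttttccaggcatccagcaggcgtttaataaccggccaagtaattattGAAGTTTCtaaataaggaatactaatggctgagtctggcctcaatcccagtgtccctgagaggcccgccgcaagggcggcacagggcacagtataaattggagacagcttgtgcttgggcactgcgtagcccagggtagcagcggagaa
A match is a description of the letters and not a binding site, and its part in the levels was not tested.

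Genes next to the 8 on the chromosome were looked up in the same annotation. Lin37, a cell cycle gene that overlaps Hspb6 and may therefore share reads with it, was also lower, averaging 337 ± 32.6 in Tbx18 and 635 ± 107 in GFP (log2 fold change -0.90, limma adjusted p = 0.000711), and Proser3 on the other side of Hspb6 was lower by -0.60 (limma adjusted p = 0.00407; 0.0709 with equal totals). Snx18, a sorting nexin beside Hspb3, averaged 1314 ± 74.8 in Tbx18 and 1329 ± 39.7 in GFP and was not called (limma adjusted p = 0.88). With equal totals it was called higher, at a log2 fold change of 0.25. Tial1 before Bag3 was called lower by -0.28 and Inpp5f after it was not called at -0.14. The Tial1 call was lost under 3 of the other scalings and without Tbx18 replicate 1 or 3. Ywhag, before Hspb1, was lower by -0.33, and was not called with equal totals, after quantile normalization or without Tbx18 replicate 1. Outside the Cryab and Hspb2 pair, each neighbour named here had a higher log2 fold change than the member beside it.

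Over the 6 libraries, the gene whose profile lay nearest to that of Hspb6 was Dusp26, a phosphatase, with a root mean square difference of 0.11 in centred log2 values, followed by Pln, the phospholamban gene of the calcium pump, with 0.13. Etfb, of the electron transfer flavoprotein, and Lin37 were nearest to Hspb1 at 0.05 each, and the muscle genes Tmem182 and Cpt1b, the carnitine palmitoyltransferase of muscle mitochondria, were nearest to Hspb7 at 0.04 each. Nfil3 and B3galt2 were nearest to Hspb8 (0.05 and 0.07), Sh3kbp1 and the methyltransferase gene Smyd2 to Hspb3 (0.08 and 0.09), and Dusp27 and Bsg to Bag3 (0.04 and 0.06). Cryab lay nearest to Ict1 and Bola3, both mitochondrial (0.05 and 0.06), and Hspb2 to Ttc1 and Ntpcr (0.04 each). In every case a gene outside the family was nearer than the closest family member, whose difference was 0.12 to 0.35. The genes named are the best of 8931, against few family members, so nothing about the family is read from this. They describe likeness only, which includes the size of the difference between the groups.

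The wider chaperone system held genes of both directions. The counts that follow stand beside 23.5% of all tested genes lower and 22.5% higher, or 12% lower and 42.5% higher with equal totals, and nothing particular to a list is read from them. Of 14 tested Hsp70 and Hsp110 genes 4 were higher and 5 lower, and 5 did not pass the test. The higher count was 1 without Tbx18 replicate 1 or 3 and 2 without Tbx18 replicate 2 or GFP replicate 3, and the lower count was 3 without any 1 of the Tbx18 libraries or GFP replicate 2 or 3. Hspa4l, of the Hsp110 branch, fell 2.95-fold to 235 ± 19.6 in Tbx18, against 691 ± 82.8 in GFP, and Hspa9, the mitochondrial Hsp70, fell 1.78-fold. Hsph1, the Hsp110 that reloads Hsp70 with ATP, rose by 0.49. Hspa1l was called higher by 0.76, but not without any 1 of the Tbx18 libraries, without GFP replicate 3 or after quantile normalization. The constitutive partner of Bag3, Hspa8, had 645, 567 and 1122 counts in Tbx18 and 510, 682 and 579 in GFP, with overlapping groups, and the heat-inducible Hspa1b 54.3, 67.6 and 88.7 in Tbx18 and 57.4, 179 and 117 in GFP. Neither was called (limma adjusted p = 0.242 and 0.19), although Hspa8 was called with equal totals, and Hspa1b without GFP replicate 1 and after quantile normalization. Hsp70 genes have near-identical copies among which reads may be split or lost. With equal totals 7 were called higher and 3 lower, and with upper-quartile scaling 6 and 3.

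Of 16 J-domain genes, whose proteins hand clients to Hsp70, 8 fell and 2 were called higher. The higher count was 1 when any single library but GFP replicate 2 was left out. Dnajb5, Dnaja4 and Dnajb4 fell 2.06-fold, 1.73-fold and 1.67-fold (limma adjusted p from 8.77e-05 to 0.000305), and Dnajb6, a partner of Bag3 at the Z-disc, fell 1.59-fold. Dnajb1, which drives Hsp70 in the heat shock response, was lower by -0.40 (limma adjusted p = 0.0025), a call lost with equal totals, while Dnaja1 was higher by 0.44. With equal totals 5 were lower and 5 higher. Among 13 Hsp90 chaperones and partners 4 were lower and 3 higher. The muscle-specific members Smyd1 and Unc45b, which help fold myosin, fell 2.10-fold and 1.58-fold, and Fkbp5, a glucocorticoid-induced co-chaperone, rose by 0.68. With equal totals or after quantile normalization 6 were higher and 2 lower. Of 10 chaperonin genes 4 were lower and 0 higher, led by Hspe1 at -0.53, Cct3 at -0.48 and Cct2 at -0.34; with equal totals 1 was lower and the median turned from -0.19 to 0.08.

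The heat shock factors did not move together either. Hsf1, the main switch of the heat shock response, had 899, 841 and 799.6 counts in Tbx18 and 641, 706 and 740 in GFP, and was called higher by 0.28 (limma adjusted p = 0.0347). That call was lost in 6 of the 18 alternative settings (limma adjusted p from 0.0011 to 0.154), among them those without Tbx18 replicate 1 or 2, without GFP replicate 1 or 2 and with a replicate block. Hsf2, its developmental relative, had 1039, 1131 and 967 counts in Tbx18 and 1950, 2296 and 2317 in GFP. It fell 2.09-fold (log2 fold change -1.06 with an SE of 0.10, limma adjusted p = 4.5e-05) and kept its call in all 18 settings. Hsbp1, which binds Hsf1 and restrains it, was lower by -0.35, and not with equal totals, after quantile normalization or without Tbx18 replicate 3.

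Of 13 tested partners of Bag3 in selective autophagy, 5 were lower and 0 higher, with a median log2 fold change of -0.11. The lower count was 3 without Tbx18 replicate 1 or 2, and with equal totals 1 was lower and 5 were higher. Dnajb6, named above, is one of them, and its log2 fold change of -0.67 stood beside -0.66 for Bag3. Stub1, the ubiquitin ligase, averaged 1206 ± 49.9 in Tbx18 and 1300 ± 52.2 in GFP and was not called (limma adjusted p = 0.302), nor was the autophagy receptor Sqstm1 at 8312 ± 328 in Tbx18 and 9855 ± 2092 in GFP, except without GFP replicate 1. The log2 fold changes of both turned positive with equal totals. Synpo2, the scaffold that the WW domain of Bag3 binds, was lower by -0.48 (limma adjusted p = 0.00178; 0.0888 with equal totals). Bag2 and Bag1 were lower among the 5 other BAG genes, by -0.58 and -0.37, and Bag1 lost its call in 8 of the 18 settings, among them those without Tbx18 replicate 1 or 3 or GFP replicate 2 or 3. Of 14 autophagy genes 5 were lower and 0 higher. The lower count was 2 without Tbx18 replicate 2 or GFP replicate 3 and 3 without Tbx18 replicate 1 or 3. Optn, an autophagy receptor, fell 2.24-fold, Gabarapl2 was lower by -0.44 and Gabarap by -0.31, the last call being lost in 9 of the 18 settings, among them those without any 1 of the Tbx18 libraries and without GFP replicate 2 or 3. With equal totals 1 was lower and 4 were higher, and the median turned from -0.25 to 0.01.

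Clients of these chaperones did not move together. Des, desmin, the intermediate filament that Cryab protects, fell 2.53-fold to 41268 ± 3376 in Tbx18, against 104553 ± 16723 in GFP (log2 fold change -1.33, limma adjusted p = 8.51e-05). Vim, vimentin, the filament of mesenchymal cells, was higher by 0.39 (limma adjusted p = 0.0256), a call lost without any 1 of the Tbx18 libraries and without GFP replicate 3. Krt8 and Krt18, keratins of simple epithelia, rose 11.9-fold and 3.02-fold. Of 8 intermediate filament and linker genes 4 were higher and 1, Des, was lower. The filamins went opposite ways: Flnc, the muscle filamin cleared by Bag3, fell 1.70-fold to 8831 ± 907 in Tbx18, against 14990 ± 3833 in GFP, and Flna, the filamin of non-muscle cells, rose 1.90-fold to 37051 ± 2997 in Tbx18, against 19538 ± 3863 in GFP (limma adjusted p = 0.00426 and 0.00055). Of 10 filamin and sarcomere client genes 6 were lower and 1 higher, with Fhl1 falling 3.19-fold and Actn2, the Z-disc actinin, 1.95-fold; with equal totals, after quantile normalization or without GFP replicate 1, 2 were higher. The fibroblast marker sum, mostly Col1a1 and Col3a1, was 515700 to 599776 in Tbx18 against 240384 to 280254 in GFP in the same libraries. The part of fibroblasts in the Vim and Flna values was not tested.

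**Figure D4:**
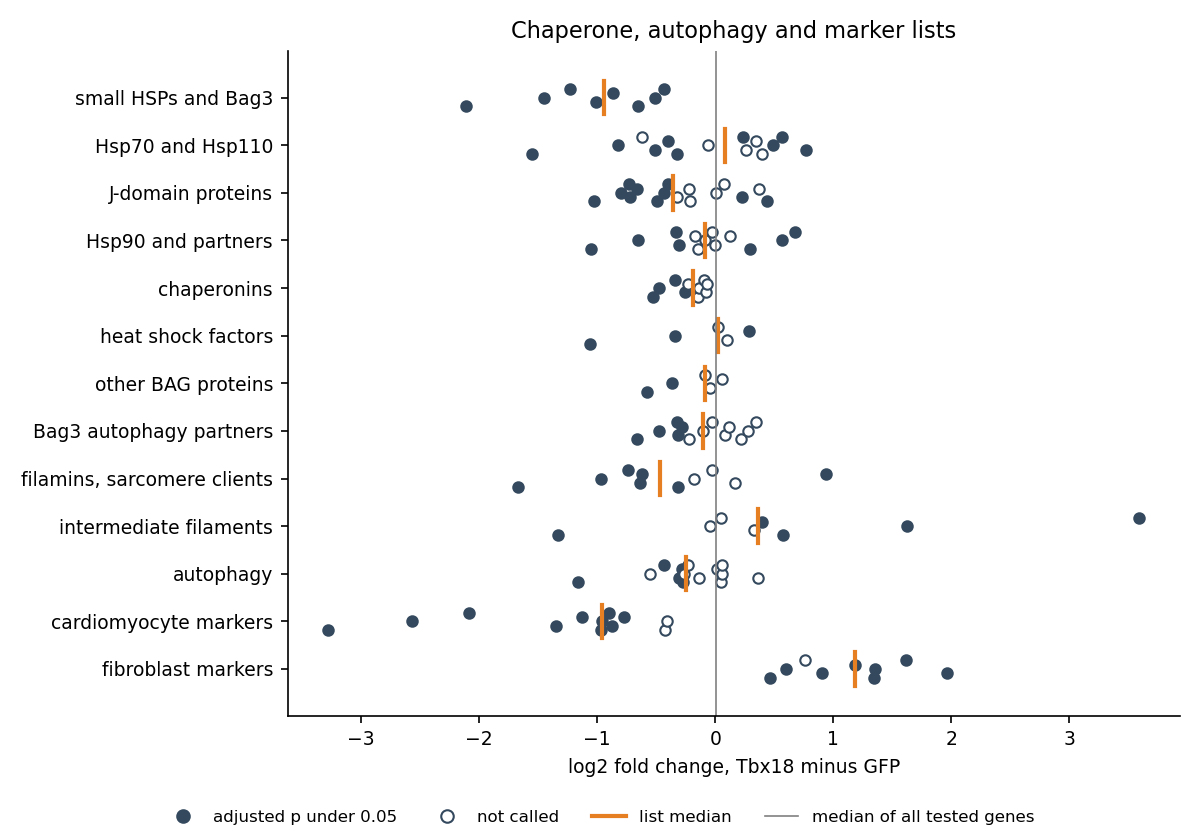
Log2 fold change (x axis, Tbx18 minus GFP) of every tested gene in 13 lists, filled where the limma adjusted p was under 0.05 and open otherwise, with the list median as an orange bar and the median of all tested genes as a grey line. The small heat shock proteins and Bag3 all lie left of the line (median -0.94), as do the cardiomyocyte markers (median -0.96), while the Hsp70, Hsp90 and heat shock factor lists lie on both sides (medians 0.09, -0.09 and 0.02).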

How the data were processed

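The deposited values are labelled as DESeq2-normalized counts, a signal per gene for which the authors divided each library's gene read counts by 1 size factor. Per the submitters' processing notes, the tools were STAR 2.4.0g1, DESeq2 1.10.1, HTSeq and bcl2fastq 2.17.1.14, with no roles stated. Genome build, gene annotation and whether counting used strand were not given in the sources used here. Per the labels' protocols, libraries were made with a stranded mRNA kit. Of the values, 100% were whole multiples of the column's smallest step within 0.01, so reads were recovered, and all 6 columns were used.

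Differences were tested with limma 3.58.1 (R 4.3.3, intensity trend, no block) on log2(normalized count + 1), a scale that understates changes of low genes, for genes with a mean of at least 10. Benjamini-Hochberg adjustment ran over all 11230 genes, and genes under 0.05 were called. SDs are over 3 libraries, and folds are ratios of group means. Sums and within-library ratios were tested with exact permutations, two-sided. The 8 genes have 623 to 50072 reads per library, so spread between libraries, not counting error, limits precision. The test was tried on simulated counts.

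The genes, lists and tests were chosen with earlier results of these data known. Lists held 175 symbols, of which 4 were not matched. Named from each chaperone, client and autophagy list were the 3 called genes with the largest change and a fixed set (Tbx18, Hsf1, Hsf2, Hspa8, Hspa1b, Dnajb1, Stub1, Synpo2, Sqstm1, Flnc, Des, Vim); also the 2 genes with the nearest profile, of a mean of at least 100, and chromosomal neighbours, of which some are not reported here. Hsph1, Dnaja1, Dnajb6, Unc45b, Cryaa, Hspb9, Hspb11, Myf5 and Pax7 were named after their values were seen where this rule did not name them. The same holds for the other single cardiomyocyte, fibroblast and skeletal muscle markers. Alternatives were other scalings, pseudocounts 0.5 and 5, filters, limma without trend, DESeq2 1.42.0 and edgeR 4.0.16 on the reads, a replicate block and leaving out each library. On recovered reads edgeR called 2615 genes higher and 2591 lower.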

Additional observations from a re-analysis of the deposited data

How the results depend on the processing

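All 144 values of the 8 genes under the alternatives were below 0, and 136 kept their call; the 8 losses were those of Cryab (6) and Hspb2 (2) given above. Under equal totals 4770 genes were called higher and 1351 lower, in place of 2525 and 2639; this scaling raises the median of all genes by 0.26. With 1 library left out the counts were 1905 to 2870 higher and 2056 to 2967 lower, and 7 to 8 of the 8 genes were called lower and 0 higher. The log2 difference of the small heat shock protein sum was -0.83, or -0.97 to -0.74 with 1 library left out and -0.47 after quantile normalization. The log2 ratios were -0.92 to -0.71 for Hspb8 to Bag3, 0.70 to 0.86 for Hspb2 to Hspb3, -0.41 to -0.27 for Hspb1 to Cryab, -1.32 to -1.20 for Hspb6 to Hspb1 and -0.61 to -0.43 for Hspb7 to Cryab. That of Cryab to Hspb2 ran from -0.13 to 0.043, its sign changing without GFP replicate 3. The cause was not tested. For Hspb7 to Cryab the exact permutation p was 0.2 without GFP replicate 2 or without GFP replicate 3, and 0.1 with any other library left out. Of 612 list counts, 83 moved by over 1.5 times. Replicate numbers are shared by the groups, but same-numbered libraries are not said to be pairs. Their deviations from the group means had correlations of -0.0047, 0.151 and 0.0165. With 3 libraries per group these cannot decide whether the libraries were paired. With a replicate block 2527 genes were higher and 2628 lower, and all 8 genes were called lower.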
